A study of Mus musculus with 4 samples.

Results

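The proteasome genes of the mouse dorsal raphe nucleus were read as every array probe whose gene symbol begins with Psm, a letter from a to g and a number, which gave 40 probes for 40 genes among 16624 gene probes with 1 symbol and 23464 gene probes in all. Of these 40 genes 39 encode subunits, activators, assembly factors or an inhibitor of the proteasome, and the last, Psmc3ip, is a meiotic recombination factor that shares only the name. Of 48 genes listed by role 39 had a probe, and Psma5, Psmb3, Psmb11, Psme2, Psme3 and Psmg1, Psmg2, Psmg3 and Psmg4 were not measured here. The rule uses names alone and no measured value, but it was chosen with earlier results of these data known. The groups were stressed D2LR-KO mice, which lack the long form of the dopamine D2 receptor, stressed D2R-KO mice, which lack the receptor, stressed WT mice and non-stressed WT mice. All were males on the C57BL/6J background, 10 weeks old. The 3 stressed groups swam for 6 min a day on 4 days in a row and were dissected 12 h after the final session. Each group is 1 single-colour array of RNA pooled from 5 mice, and no non-stressed knockout was analysed here, so a knockout and the swim cannot be told apart against non-stressed WT. With 1 array per group there is no spread between replicates, no test was possible, and every difference below describes these 4 arrays.

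The proteasome degrades proteins tagged with ubiquitin. Its core particle, the 20S barrel, stacks outer rings of alpha subunits, which gate the entrance, on inner rings of beta subunits, 3 of which (Psmb5, Psmb6 and Psmb7) cut proteins. The regulatory 19S cap, made of ATPases that unfold the substrate and non-ATPases that bind and remove ubiquitin, sits on the core, while interferon swaps the catalytic subunits for Psmb8, Psmb9 and Psmb10 to form the immunoproteasome. In neurons the complex takes part in synaptic protein turnover, and when its activity drops the factor Nfe2l1 can raise transcription of most subunit genes together.

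The arrays had 91.0% to 91.6% of gene probes above the blank spots, and all 40 members were above them on all 4 arrays. Deposited intensities are on a linear scale on which the median of every array is 25. Differences are given as log2 of background-corrected signal plus 50 after quantile normalization of the 4 arrays, so that 0.585 is a 1.5-fold and 1 a 2-fold difference. Repeated positive control spots gave SDs of a log2 difference between 0.0966 and 0.227, which cover spots and not mice. The stressed WT array stood apart: over all gene probes it correlated at 0.957 to 0.965 with the other arrays, which correlated at 0.990 to 0.994 with one another. The single probe of the targeted gene, Drd2, had a deposited intensity of 48.3 in stressed D2LR-KO, 20.9 in stressed D2R-KO, 43.8 in stressed WT and 26.8 in non-stressed WT. The sources used here do not give its place relative to either deletion. Among marker lists, the summed intensity of 11 serotonergic neuron probes was 3926.9 in stressed D2LR-KO, 3764.9 in stressed D2R-KO, 2197.3 in stressed WT and 2635.6 in non-stressed WT. The defining marker Tph2 had 151.5, 264.6, 10.7 and 31.4 in the same order. The brightest of the 11, Ddc, had 2253.8 in stressed D2LR-KO and 1735.3 in stressed D2R-KO. Against the order of the sums, 9 of the 11 were lower in D2LR-KO than in D2R-KO and 2 higher, with a median log2 difference of -0.24. Choroid plexus probes summed to 222.9 and 46.6 in the D2LR-KO and D2R-KO arrays, against 5762.8 in stressed WT and 13081.9 in non-stressed WT. Nearly all of the WT sums was Ttr, with 5720.2 in stressed WT and 12884.0 in non-stressed WT. Against stressed WT only Ttr of these 6 probes was at least 1.5-fold lower in each knockout. Against non-stressed WT 5 of 6 were at least 1.5-fold lower on each stressed array, stressed WT included. The 6 forebrain neuron probes summed to 2310.2 and 2215.0 in D2LR-KO and D2R-KO, against 7311.2 in stressed WT and 6446.1 in non-stressed WT. Hpca was the brightest of the 6 on every array, with 4733.4 in stressed WT and 3547.1 in non-stressed WT. Between these 2 arrays 2 of the 6 were at least 1.5-fold higher in stressed WT (7.2% of all gene probes). Icam5 was the 1 at least 1.5-fold lower (8.04% of all), at -1.46. Astrocyte probes (7) summed to 4794.4, 4500.3 and 2151.8 in the stressed D2LR-KO, D2R-KO and WT arrays, against 4632.2 in non-stressed WT. Gja1 had 747.9 in stressed WT and 2010.3 in non-stressed WT, and Gjb6 306.0 and 1118.5. These 2 of the 7 were at least 1.5-fold lower there (8.04% of all gene probes) and 0 higher (7.2% of all). The median of the 7 was -0.27, with 6 below 0 and 1 above. Endothelial probes (6) summed to 2200.2, 2075.1 and 810.7 in the stressed D2LR-KO, D2R-KO and WT arrays, against 1895.0 in non-stressed WT. Oligodendrocyte probes summed to 14284.7 to 19096.5 and pituitary probes to 84.7 to 579.6 over the 4 arrays. The part of these marker differences in the values below was not tested, and in pooled tissue fewer cells of a type and less RNA per cell cannot be told apart.

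**Figure D1:**
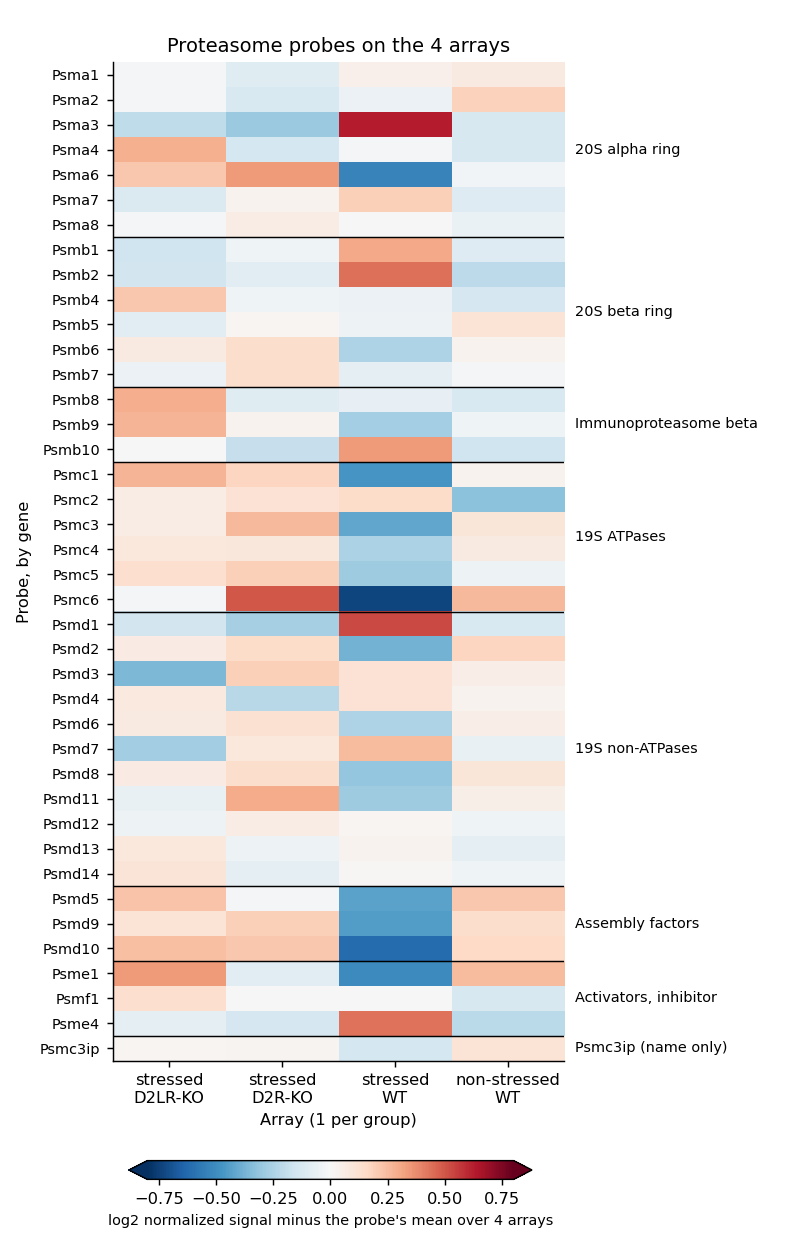
Signal of each of the 40 proteasome probes (rows, grouped by role) on the 4 arrays (columns), as log2 normalized signal minus the mean of that probe over the 4 arrays. The stressed WT column holds the deepest colours in both directions, with Psmc6 lowest and Psma3 highest, and the other 3 columns are paler.

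Both knockout arrays held proteasome signals within 1.5-fold of non-stressed WT for every member after quantile normalization. With the brightness around each spot as background 10 members were higher (6.96% of all gene probes) and 3 lower (5.0% of all) in D2R-KO. In D2LR-KO 10 were then higher (6.88% of all) and 7 lower (4.74% of all). Each other scaling gave at most 3 calls per knockout. In stressed D2R-KO against non-stressed WT 0 of 40 members were at least 1.5-fold higher (0.575% of all gene probes were) and 0 at least 1.5-fold lower (1.47% of all). Their median log2 difference was 0.07, against 0.01 over all probes, and they ran from -0.34 for Psme1 to 0.44 for Psmc2. In stressed D2LR-KO against non-stressed WT the counts were again 0 higher (0.735% of all) and 0 lower (1.39% of all), with a median of 0.02, against 0.00 over all probes, and a range from -0.42 for Psmd3 to 0.41 for Psmb8. Each of these shares of all probes comes to fewer than 1 in 40, so a count of 0 lies at the background. D2LR-KO against D2R-KO likewise had 0 members higher (0.657% of all) and 0 lower (0.335% of all), with a median of -0.03.

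On the stressed WT array the members lay farther from the other arrays, in both directions. Against non-stressed WT 4 members were at least 1.5-fold higher (7.2% of all gene probes, 10.0% of members) and 5 at least 1.5-fold lower (8.04% of all, 12.5% of members). None of the 40 reached 2-fold, which 1.44% of all probes did upward and 2.12% downward. The median was -0.05, against 0.00 over all probes. The SD over members was 0.43, against 0.42 over all probes, dim ones included. Most members are bright, and among probes at or above the median mean signal, a filter added after the values were seen, they scattered less than the rest. There the SD was 0.44 over 38 members and 0.55 over all such probes. Of the 38, 4 were at least 1.5-fold higher (12.8% of all such probes) and 5 lower (14.7%). Higher in stressed WT were Psma3, Psme4, Psmd1 and Psmb2, and lower were Psmc6, Psmd10, Psme1, Psmd5 and Psmd9. Stressed WT was the lowest of the 4 arrays for 18 members (45.0%, against 37.6% of all detected probes) and the highest for 10 of 40 (40.2% of all detected probes). On the other 3 arrays all 40 members stayed within a 1.5-fold range, with a median range of 0.18 on the log2 scale and a largest of 0.55 for Psmd3. Across all detected probes 15551 of 16100 did.

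**Figure D2:**
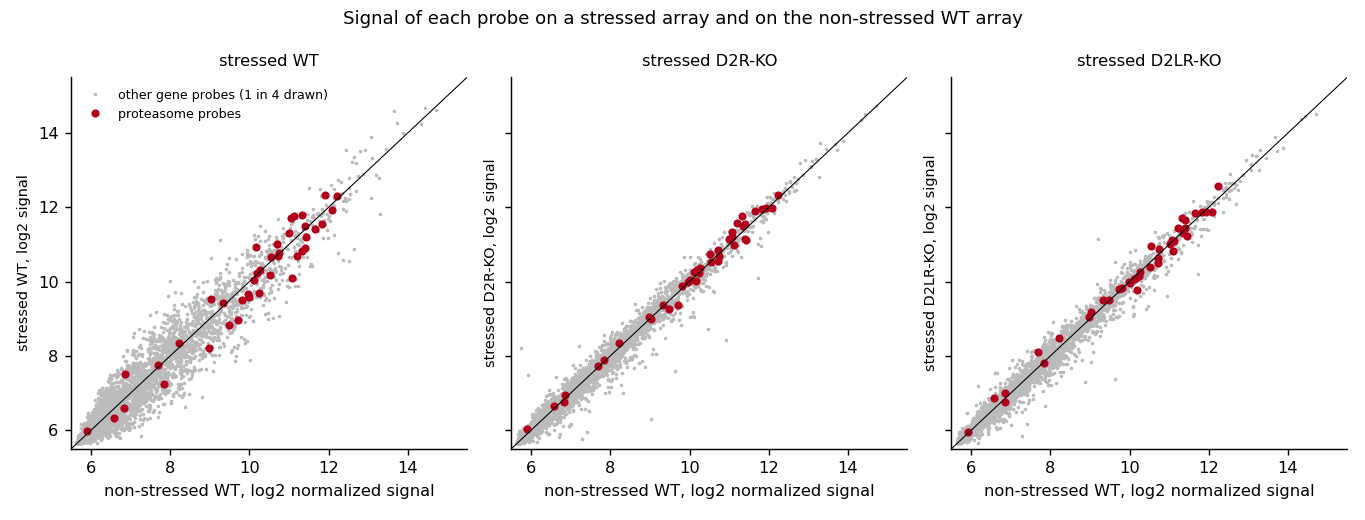
Log2 normalized signal of each probe on a stressed array (vertical axis) and on the non-stressed WT array (horizontal axis), with proteasome probes in red, other gene probes in grey (thinned for drawing) and the line of equal signal in black. Red points lie along the line for both knockouts and scatter to both sides of it for stressed WT, as the grey points do.

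How far the members shift together on that array depends on the scaling. The deposited intensities, which share a median of 25 on every array, were lower in stressed WT than in non-stressed WT for 32 of 40 members, with a median log2 ratio of -0.38. Of the 40, 16 were at least 1.5-fold lower (24.5% of all gene probes) and 1 at least 1.5-fold higher (22.2% of all). Bright probes in general leaned the same way on this scale: among 8050 gene probes at or above the median mean signal, a filter added after the values were seen that keeps 38 members, 30.5% were at least 1.5-fold lower and 10.8% higher, with a median of -0.25. The upper part of the stressed WT array was dimmer as a whole, with a deposited 95th percentile of 623.8 in stressed WT, against 788.3 in stressed D2LR-KO, 872.8 in stressed D2R-KO and 759.9 in non-stressed WT. Quantile normalization, which gives all arrays 1 distribution, brought the members' median to -0.05, and subtracting the brightness around each spot in place of the blank spots turned it to 0.15.

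**Figure D3:**
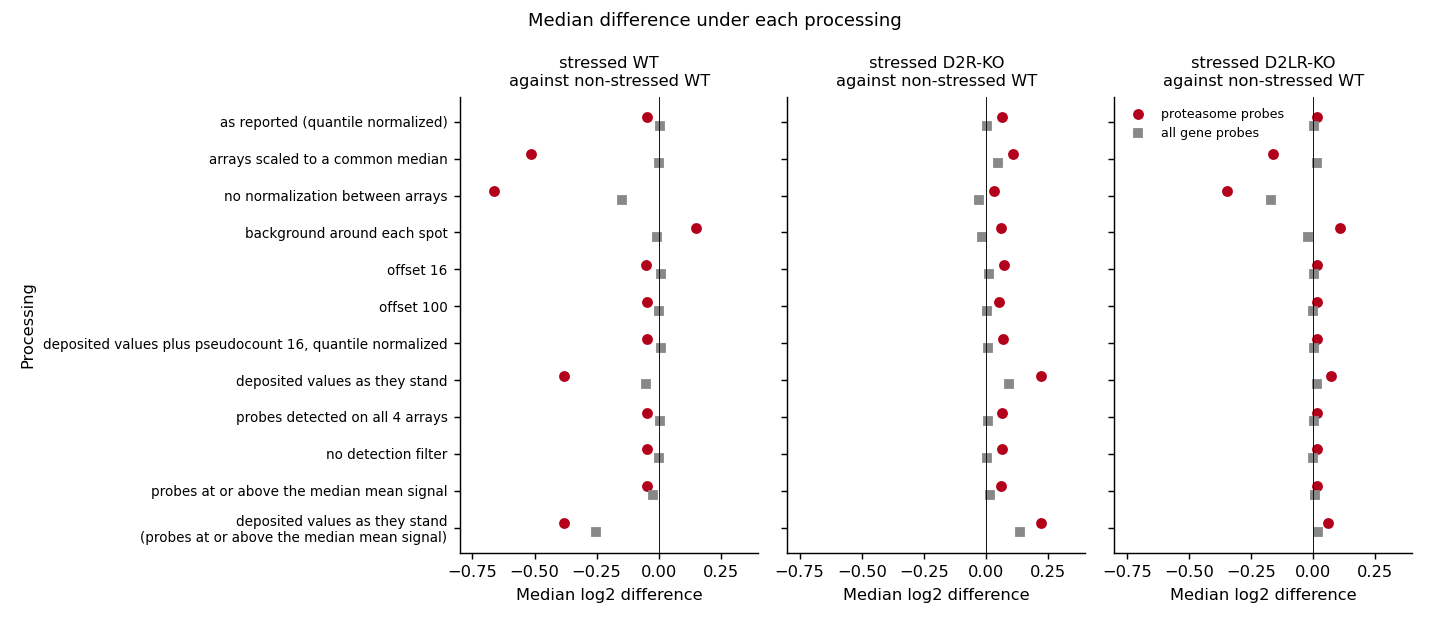
Median log2 difference of the proteasome probes (red circles) and of all gene probes (grey squares) against non-stressed WT for each stressed array (panels) under each way of processing (rows). In the stressed WT panel the red median runs from -0.66 to 0.15, in the D2R-KO panel from 0.03 to 0.22 and in the D2LR-KO panel from -0.35 to 0.11.

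In the alpha ring, the gate of the core particle, 4 of 7 probes were above 0 and 3 below in stressed WT against non-stressed WT. Their median was 0.06, with 1 at least 1.5-fold higher (7.2% of all gene probes) and 0 lower (8.04% of all). With no normalization between arrays 5 of 7 were below 0 and 3 at least 1.5-fold lower (22.4% of all). The Psma3 probe had a deposited intensity of 642.6 in stressed D2LR-KO, 653.1 in stressed D2R-KO, 877.4 in stressed WT and 641.0 in non-stressed WT. Stressed WT was the highest array and the other 3 lay close together, with a log2 difference of 0.76 for stressed WT against non-stressed WT, which was 0.08 with no normalization between arrays. Against stressed WT, Psma3 was lower by a log2 difference of -0.84 in D2LR-KO and -0.93 in D2R-KO. These comparisons share the stressed WT array, so their opposite signs follow from the sharing. Psma6 went the other way, with 1708.0 in stressed D2LR-KO and 2047.1 in stressed D2R-KO, against 745.6 in stressed WT and 1363.5 in non-stressed WT. Its stressed WT difference from non-stressed WT was -0.51, short of 1.5-fold, and its differences from stressed WT were 0.75 in D2LR-KO and 0.88 in D2R-KO. Subtracting the brightness around each spot turned the first of these values to 0.68 and the D2LR-KO one to -0.23. Psma4 was highest in D2LR-KO, with 1189.1 in stressed D2LR-KO, 954.1 in stressed D2R-KO, 727.2 in stressed WT and 847.6 in non-stressed WT, a log2 difference of 0.41 for D2LR-KO against non-stressed WT. Psma2 had 1455.5, 1489.5 and 1058.5 in the stressed D2LR-KO, D2R-KO and WT arrays, against 1601.2 in non-stressed WT, and its 3 differences ran from -0.31 to -0.20. The other 3 alpha probes, Psma1, Psma7 and Psma8, stayed between -0.17 and 0.30 in their differences from non-stressed WT. Psma8, a form of the alpha ring made in the testis, was close to the blank spots, with deposited intensities of 5.6 to 8.4.

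After quantile normalization the catalytic genes of the constitutive core were within 1.5-fold in all 6 comparisons, which did not hold on every scale. Psmb5, the chymotrypsin-like site, had 2284.1 in stressed D2LR-KO, 2670.1 in stressed D2R-KO, 1816.2 in stressed WT and 2463.7 in non-stressed WT, and its differences from non-stressed WT ran from -0.19 to -0.09. Psmb6, the caspase-like site, had 2278.3, 2613.7 and 1352.8 in the stressed D2LR-KO, D2R-KO and WT arrays, against 2055.1 in non-stressed WT, with a stressed WT difference of -0.27. Psmb7, the trypsin-like site, had 629.2, 796.5 and 470.9 in the same arrays, against 612.7 in non-stressed WT, with a stressed WT difference of -0.07. With no normalization between arrays the stressed WT differences were -0.80 for Psmb5, -0.96 for Psmb6 and -0.71 for Psmb7, all past 1.5-fold. In that setting 22.4% of all gene probes were at least 1.5-fold lower, with a median of -0.15 over all probes. Psmb2, a structural beta subunit, had 1350.5 in stressed D2LR-KO, 1551.8 in stressed D2R-KO, 1537.3 in stressed WT and 1239.1 in non-stressed WT. Its difference of 0.65 for stressed WT against non-stressed WT did not hold across scalings, being -0.06 with no normalization and -0.79 with the background around each spot. Psmb1 and Psmb4 ran from -0.06 to 0.40 against non-stressed WT.

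The immunoproteasome subunits were a little higher in stressed D2LR-KO than in non-stressed WT, and none reached 1.5-fold after quantile normalization. With the brightness around each spot as background 2 of 3 did (6.88% of all gene probes). Psmb8 had 133.6 in stressed D2LR-KO, 100.4 in stressed D2R-KO, 84.2 in stressed WT and 92.3 in non-stressed WT. Psmb9 had 39.2 in stressed D2LR-KO, 29.0 in stressed D2R-KO, 18.3 in stressed WT and 26.3 in non-stressed WT. D2LR-KO was thus the highest array for both, with differences from non-stressed WT of 0.41 (Psmb8) and 0.30 (Psmb9). Over the alternatives these ran from 0.07 to 0.76 for Psmb8 and from 0.07 to 0.58 for Psmb9, and control spots gave SDs of 0.180 and 0.227 for this pair of arrays. For Psmb10, with 319.1 in stressed D2LR-KO, 301.8 in stressed D2R-KO, 326.4 in stressed WT and 278.6 in non-stressed WT, stressed WT was the highest array and the D2LR-KO difference was 0.15, which ran from -0.22 with no normalization between arrays to 1.01 with the local background. Against D2R-KO the 3 differences of D2LR-KO were 0.39, 0.24 and 0.18 for Psmb8, Psmb9 and Psmb10, and the last ran from -0.15 with no normalization to 1.05 with the local background. Of 14 interferon response genes listed beside them 10 had a probe, and their median difference for D2LR-KO against non-stressed WT was 0.00, with 0 of 10 past 1.5-fold. In stressed WT against non-stressed WT 5 of those 10 were at least 1.5-fold lower (8.04% of all gene probes) and 0 higher (7.2% of all), with a median of -0.60, while the 3 immunoproteasome probes had -0.24, 0.06 and 0.50. B2m, the light chain of MHC class I, had 2214.8 in stressed D2LR-KO, 2063.2 in stressed D2R-KO, 728.7 in stressed WT and 1511.7 in non-stressed WT. Microglia markers, 8 probes of a cell type that can make the immunoproteasome, summed to 1723.1 in stressed D2LR-KO, 1671.4 in stressed D2R-KO, 1068.4 in stressed WT and 1598.1 in non-stressed WT, and their part in these values was not tested.

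**Figure D4:**
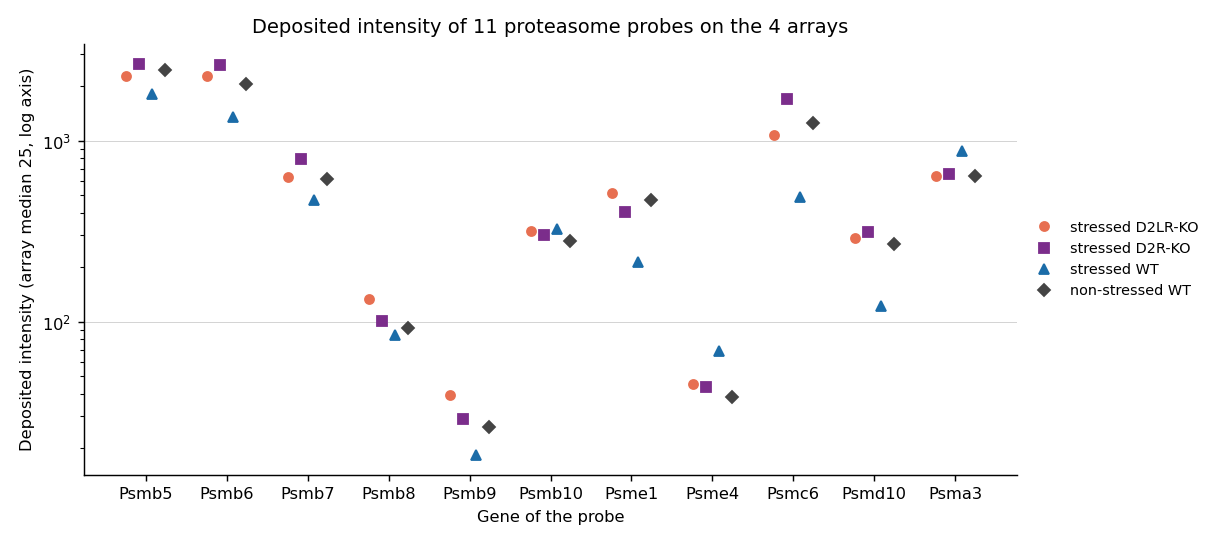
Deposited intensity (log axis, array median 25) of 11 proteasome probes on each of the 4 arrays, 1 point per array. The stressed WT triangle is the lowest point for Psmc6, Psmd10, Psme1 and all 3 constitutive catalytic subunits, and the highest for Psma3 and Psme4, while the D2LR-KO circle is the highest for Psmb8 and Psmb9.

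Of the 6 ATPases of the cap 5 were below 0 in stressed WT against non-stressed WT, with a median of -0.41. After quantile normalization 1 of 6 was at least 1.5-fold lower (8.04% of all gene probes). With arrays scaled to a common median 5 of 6 were (16.4% of all), with a median of -0.93. With no normalization 5 of 6 were (22.4% of all), with a median of -1.08. Local background subtraction around the spots turned the median to 0.95, with 4 of 6 at least 1.5-fold higher (9.81% of all) and 1 lower (9.84% of all). Psmc6, one of the ATPases that form the unfolding ring, had 1071.3 in stressed D2LR-KO, 1696.4 in stressed D2R-KO, 488.5 in stressed WT and 1254.7 in non-stressed WT. The stressed WT array lay far below the other 3, with a deposited intensity 0.389 times that of non-stressed WT. On the normalized scale the log2 difference was -0.99. It stayed between -1.67 and -0.96 over the alternatives other than probe filters, which cannot change it. Against stressed WT, Psmc6 was higher by 1.23 in D2R-KO and 0.72 in D2LR-KO, and the first was the 1 member past 2-fold in any comparison, where 2.7% of all probes were. It also differed between the knockouts, by -0.51 for D2LR-KO against D2R-KO. Psmc1 (-0.50), Psmc3 (-0.52), Psmc4 (-0.32) and Psmc5 (-0.24) had the same sign in stressed WT against non-stressed WT without reaching 1.5-fold. Psmc3, for example, had 1533.5 in stressed D2LR-KO, 1943.8 in stressed D2R-KO, 816.1 in stressed WT and 1488.2 in non-stressed WT. Psmc2 was above 0 after quantile normalization, with 2038.2, 2342.4 and 1658.9 in the stressed D2LR-KO, D2R-KO and WT arrays, all above the 1482.1 of non-stressed WT, and differences of 0.38, 0.44 and 0.47. With no normalization its stressed WT difference was -0.20 and all 6 ATPases were below 0 there, whereas the brightness around each spot as background gave 2.21 for Psmc2 in stressed WT and 2.02 in D2R-KO. In D2R-KO against non-stressed WT all 6 ATPases were above 0, from 0.02 to 0.44 with a median of 0.20, and none reached 1.5-fold. With the brightness around each spot as background 5 of 6 were above 0 and 4 at least 1.5-fold higher (6.96% of all gene probes), with a median of 0.94.

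Non-ATPase subunits of the cap lay on both sides of non-stressed WT, with 1 of 11 at least 1.5-fold higher in stressed WT (7.2% of all gene probes) and 0 lower (8.04% of all) after quantile normalization. With no normalization all 11 were below 0 and 8 at least 1.5-fold lower (22.4% of all gene probes). With arrays scaled to a common median 10 were below 0 and 4 at least 1.5-fold lower (16.4% of all). Psmd1, a scaffold of the cap base, had 1304.8 in stressed D2LR-KO, 1317.9 in stressed D2R-KO, 1600.1 in stressed WT and 1275.7 in non-stressed WT. Stressed WT was above the other 3 arrays, which nearly coincided, with a difference of 0.65 from non-stressed WT that was -0.04 with no normalization between arrays. With the local background the other arrays no longer coincided, since the differences from non-stressed WT were 2.35 in D2R-KO and 2.91 in stressed WT, with D2LR-KO below both. Psmd2, the partner scaffold, had 665.4 in stressed D2LR-KO, 775.6 in stressed D2R-KO, 366.8 in stressed WT and 676.1 in non-stressed WT, a stressed WT difference of -0.55. The pair thus lay on opposite sides of non-stressed WT on the same array. Psmd11, a lid subunit, had 789.5, 1121.6 and 515.1 in the stressed D2LR-KO, D2R-KO and WT arrays, against 824.1 in non-stressed WT, and differed by 0.58 between D2R-KO and stressed WT. Psmd3, another lid subunit, was lowest in D2LR-KO, with 495.3 in stressed D2LR-KO, 830.9 in stressed D2R-KO, 541.7 in stressed WT and 645.6 in non-stressed WT. The D2LR-KO array differed by -0.42 from non-stressed WT and by -0.55 from D2R-KO. Both differences kept their sign under all alternatives other than probe filters, which cannot change them. Psmd7, the partner of the deubiquitinase Psmd14, had 841.4, 1208.5 and 924.4 in the stressed D2LR-KO, D2R-KO and WT arrays, against 961.3 in non-stressed WT, with -0.37 for D2LR-KO against D2R-KO, which turned to 0.58 with the local background. Psmd4, a ubiquitin receptor, had 1708.6, 1518.7 and 1274.9 in those arrays, against 1562.1 in non-stressed WT, and its stressed WT difference of 0.09 was -0.65 with no normalization. The remaining 5, Psmd6, Psmd8, Psmd12, Psmd13 and Psmd14, ran from -0.40 to 0.16 against non-stressed WT, the lowest being Psmd8 in stressed WT.

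**Figure D5:**
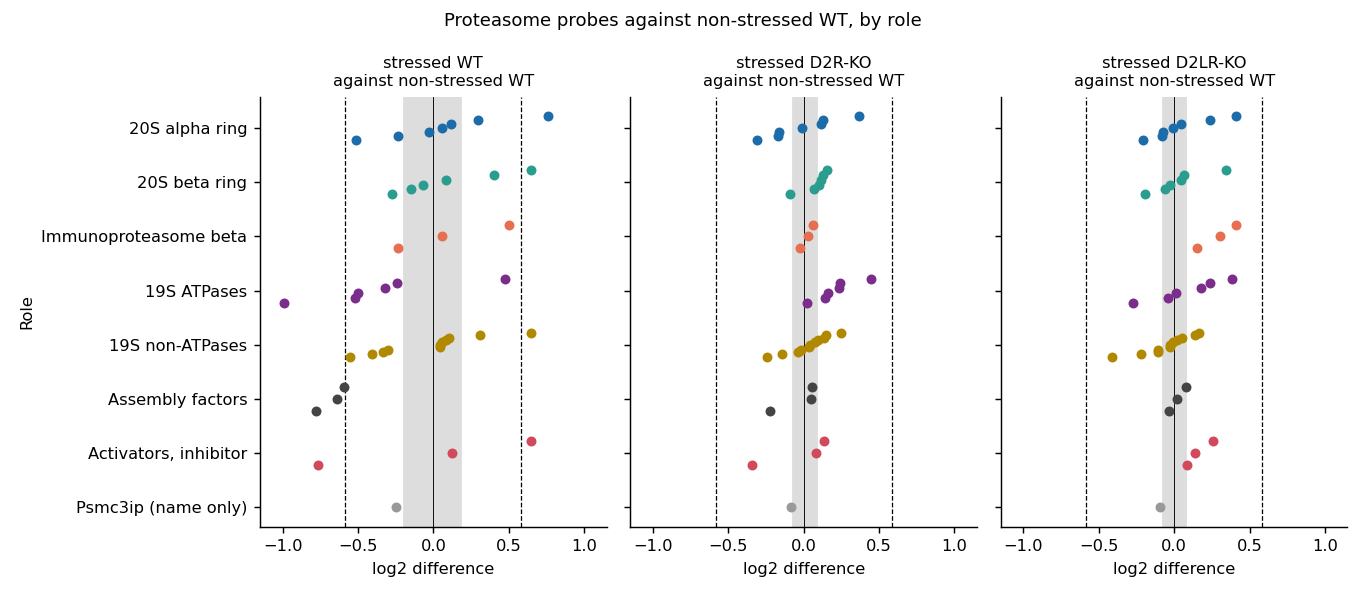
Log2 difference of each proteasome probe from non-stressed WT on each stressed array (panels), grouped by role (rows). Dashed lines mark 1.5-fold, the solid line marks no difference and the grey band is the interquartile range over all gene probes. In the stressed WT panel all 3 assembly factors lie left of the lower dashed line, and in both knockout panels no point crosses a dashed line.

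All 3 assembly factors with a probe, proteins that help build the cap and do not stay in the finished particle, were lower in stressed WT. Psmd10 (gankyrin) had 290.9 in stressed D2LR-KO, 313.1 in stressed D2R-KO, 122.5 in stressed WT and 270.2 in non-stressed WT. Psmd5 had 403.7 in stressed D2LR-KO, 369.3 in stressed D2R-KO, 197.4 in stressed WT and 393.4 in non-stressed WT. Psmd9 had 101.2 in stressed D2LR-KO, 117.1 in stressed D2R-KO, 53.8 in stressed WT and 105.1 in non-stressed WT. On this scale and after quantile normalization each was lowest in stressed WT and near its non-stressed WT value in both knockouts. The stressed WT differences were -0.78, -0.64 and -0.59, so that 3 of 3 were at least 1.5-fold lower (8.04% of all gene probes). With the background around each spot these became 0.13 for Psmd10, 1.03 for Psmd5 and -0.06 for Psmd9. In D2R-KO against non-stressed WT that setting gave 0.73 for Psmd10, 0.89 for Psmd5 and 0.16 for Psmd9. In D2LR-KO it gave 0.56, 0.75 and 0.52, so that non-stressed WT was then the lowest array for Psmd10 and Psmd5. With arrays scaled to a common median, with no normalization and on the deposited intensities as they stand, all 3 were at least 1.5-fold lower. Of all gene probes 16.4%, 22.4% and 24.5% were so in these settings. All of them bind the base of the cap, and the chaperones of the core, Psmg1 to Psmg4, were not measured here.

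Activators and the inhibitor gave 1 call of 3 in each direction in stressed WT against non-stressed WT (7.2% of all gene probes higher and 8.04% lower). Psme1, the alpha subunit of the interferon-inducible PA28 activator, had 511.9 in stressed D2LR-KO, 405.3 in stressed D2R-KO, 213.6 in stressed WT and 469.3 in non-stressed WT. Stressed WT was the lowest array, with a difference of -0.77 from non-stressed WT. Against stressed WT, D2LR-KO was higher by 0.85 and D2R-KO by 0.43, the second short of 1.5-fold. The values of -0.77 and 0.85 stayed past 1.5-fold under all alternatives other than probe filters, which cannot change them. Psme4, the PA200 activator, had 45.2 in stressed D2LR-KO, 43.8 in stressed D2R-KO, 68.7 in stressed WT and 38.5 in non-stressed WT. Its stressed WT difference of 0.65 ran from 0.30 to 0.85 over the alternatives, without a change of sign. The inhibitor Psmf1 had 183.2, 177.2 and 138.5 in the stressed D2LR-KO, D2R-KO and WT arrays, against 148.1 in non-stressed WT, with differences of 0.26, 0.13 and 0.13.

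Against the stressed WT array both knockouts had calls in both directions. In stressed D2R-KO against stressed WT 6 of 40 members were at least 1.5-fold higher (9.23% of all probes) and 2 at least 1.5-fold lower (8.58% of all), with a median of 0.06. In stressed D2LR-KO against stressed WT 6 were higher (8.64% of all) and 3 lower (8.13% of all), with a median of 0.14, against -0.01 over all probes. Higher in D2R-KO were Psmc6, Psma6, Psmd10, Psmc3, Psmc1 and Psmd9, and lower were Psma3 and Psmd1. Higher in D2LR-KO were Psmd10, Psme1, Psma6, Psmc1, Psmc6 and Psmd5, and lower were Psma3, Psmd1 and Psmb2. Both comparisons use the same stressed WT array, so names found in both are no independent repeat. On the deposited intensities as they stand 18 members were at least 1.5-fold higher in D2R-KO (29.0% of all probes) and 19 in D2LR-KO (25.3% of all), and among the bright probes the shares of all probes were 39.4% and 32.4%, so that more members were called without quantile normalization and more of the array was too.

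Promoter sequences of the genes past 1.5-fold in stressed WT against non-stressed WT were read from RefSeq (GRCm38.p6) to show what the letters before their start sites hold. Of the 40 member genes 33 had a window of 250 bases before the start, as did 8 of the 9 past 1.5-fold. The antioxidant response element core, TGACNNNGC, to which Nfe2l1 and Nfe2l2 bind, was searched on both strands. It stood in 5 of the 33 genes, namely Psmb5, Psmb6, Psmc6, Psmd12 and Psmd9, against 10.2% of all 32851 promoters. The NF-Y box, CCAAT on either strand, stood in 12 of 33, against 33.8% of all promoters. The windows below are shown because they hold one of these motifs: Psmc6 (chr14:45329574-45329823, + strand), Psmd9 (chr5:123227940-123228189, + strand) and Psmd10 (chrX:140956712-140956961, - strand) were lower in stressed WT and Psma3 (chr12:70974373-70974622, + strand) was higher. Each is written 5′ to 3′ along the gene, and capitals mark the antioxidant response element core in Psmc6 and Psmd9 and the NF-Y box in Psmd10 and Psma3.
Psmc6: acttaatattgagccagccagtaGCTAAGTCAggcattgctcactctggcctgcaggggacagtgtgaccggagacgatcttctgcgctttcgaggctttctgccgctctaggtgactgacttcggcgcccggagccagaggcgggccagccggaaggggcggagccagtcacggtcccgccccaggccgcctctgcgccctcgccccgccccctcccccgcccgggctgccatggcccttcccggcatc
Psmd9: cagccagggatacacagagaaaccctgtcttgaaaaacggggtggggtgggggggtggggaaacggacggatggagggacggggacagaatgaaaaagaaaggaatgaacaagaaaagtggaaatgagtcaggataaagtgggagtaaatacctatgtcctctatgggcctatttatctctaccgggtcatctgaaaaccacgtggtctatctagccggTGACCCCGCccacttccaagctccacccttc
Psmd10: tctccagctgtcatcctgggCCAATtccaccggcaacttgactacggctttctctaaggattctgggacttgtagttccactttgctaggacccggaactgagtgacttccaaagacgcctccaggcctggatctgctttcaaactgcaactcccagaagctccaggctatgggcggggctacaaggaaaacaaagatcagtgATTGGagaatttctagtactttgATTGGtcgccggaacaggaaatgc
Psma3: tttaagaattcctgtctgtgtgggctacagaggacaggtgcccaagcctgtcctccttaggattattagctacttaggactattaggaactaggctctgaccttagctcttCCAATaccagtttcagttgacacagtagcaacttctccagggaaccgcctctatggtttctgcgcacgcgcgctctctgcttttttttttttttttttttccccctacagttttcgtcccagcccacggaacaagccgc

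In Psmc6 the core is on the minus strand, 227 to 219 bases before the start, and in Psmd9 it is on the plus strand, 31 to 23 bases before it. Psmd10 holds 3 NF-Y boxes and Psma3 holds 1. The windows of Psmd5, Psme1, Psmd1 and Psme4 hold neither motif. The interferon-stimulated response element stood in Psmd4 and Psmd9 among the 33 genes (2.98% of all promoters), and the heat shock element in 0 of 33 (0.466% of all). Of the 5 genes with the antioxidant response element core, Psmc6 and Psmd9 were past 1.5-fold in stressed WT against non-stressed WT, and Psmb5 (-0.15), Psmb6 (-0.27) and Psmd12 (0.05) were not. A match of letters is a description and not a bound site.

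The rest of the ubiquitin pathway was read on 33 probes outside the naming rule. Their differences were computed only after quantile normalization. In stressed WT against non-stressed WT 3 were at least 1.5-fold higher (Nsfl1c at 0.81, Uba1 at 0.70 and Nfe2l1 at 0.59), or 9.09%, and 6 at least 1.5-fold lower, or 18.2%, against 7.2% and 8.04% of all gene probes, with a median of -0.17. The lower ones included both deubiquitinases that dock on the cap, Usp14 (-0.90) and Uchl5 (-0.76). Ube2k, a conjugating enzyme, had 828.0 in stressed D2LR-KO, 1007.4 in stressed D2R-KO, 254.4 in stressed WT and 779.9 in non-stressed WT, a stressed WT difference of -1.24. The others were Uba6 (-0.85), which like Uba1 activates ubiquitin, Uchl1 (-0.66) and Stub1 (-0.62). In each knockout against non-stressed WT 0 of 33 passed 1.5-fold in either direction, where 0.575% to 1.47% of all probes did. Nfe2l1 itself, the factor named above for subunit transcription, had 263.4 in stressed D2LR-KO, 398.0 in stressed D2R-KO, 393.4 in stressed WT and 319.7 in non-stressed WT.

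Probes of other large complexes were counted in the same way. In stressed WT against non-stressed WT 4 of 75 mitochondrial ribosomal protein probes were at least 1.5-fold higher and 5 lower (median -0.04), or 5.33% and 6.67%, against 7.2% and 8.04% of all gene probes. Among 69 cytosolic ribosomal protein probes 3 were higher and 16 lower (median -0.16), and among 36 complex I probes 0 were higher and 4 lower (median -0.04). Against non-stressed WT neither knockout had more than 1 call among these 3 sets. The mean profile of the members was nearly flat, with centred log2 values of 0.04, 0.04 and -0.08 on the stressed D2LR-KO, D2R-KO and WT arrays, against 0.00 on non-stressed WT. The 5 probes with profiles nearest to it over the 4 arrays, among 12054 with at least its range of 0.12, were Cd33, Gatad2b, Wfdc3, Dkk2 and Gpr65, at root mean square distances of 0.0037 to 0.0082. All 5 are dim, with deposited intensities of 1.5 to 11.8, and 4 arrays are too few to tell such profiles apart.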

How the data were processed

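Per the labels' protocols, column-purified total RNA (Qiagen) was amplified to amino allyl aRNA and coupled to Cy5. Each of the 4 single-colour Toray arrays holds RNA pooled from 5 mice. Per the file headers, the scanner tables give the median intensity of every spot and around it, neither background-subtracted. The authors' deposited value table holds linear intensity. A line per array, the spot median minus a constant (36.7 to 38.8) over a factor (1.51 to 2.05), gave its values with residuals of at most 4.51 in units of spot intensity, and the sources used here do not give the submitters' steps.

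Spot medians were processed with limma 3.58.1 in R 4.3.3: normexp correction on the 2736 blank spots per array, an offset of 50, log2 and quantile normalization over the 4 arrays, after leaving out 9 marked probes. The brightness around each spot correlated with the spot at 0.876 to 0.958, and its use is an alternative. A probe counted as detected above the blank mean plus 2 SD (38.0 to 40.3, against median spots of 67.1 to 80.1). Genes come from the series' probe table. Of 16439 symbols, RefSeq's gene table listed 12498 as current, replaced 3879 and left 62 unmatched, and 6840 gene probes have no symbol there. Each of the 6 comparisons is a difference between 2 arrays, with a call at 1.5-fold where at least 1 of the 2 detected the probe. The number of arrays, 1 per group, limits the precision, and no p-value is given. Values on all arrays are given for members past 2-fold, the 3 highest and 3 lowest of each comparison, catalytic subunits, activators, the inhibitor and assembly factors, and others are examples. Members, gene lists and marker lists were chosen with earlier results of these data known. The procedure was tested on simulated data. Further steps used Python 3.11.15, numpy 2.4.6, pandas 2.3.3 and matplotlib 3.10.9.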

Additional observations from a re-analysis of the deposited data

How the results depend on the processing

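The proteasome results were recomputed under 11 alternatives, of which the 2 that keep only probes at or above the median mean signal were chosen after seeing the data. Differences of the ubiquitin pathway, interferon response, other complex and marker probes were not recomputed and stand under the reported processing only. Offsets of 16 and 100, the deposited values plus a pseudocount of 16 with quantile normalization, both other detection filters and the bright-probe filter alone kept every median's sign and every count of members within 1.5 times of the reported one. The detection filters could not change these, since every member was detected on every array. Scaling to a common median gave stressed WT against non-stressed WT a median of -0.52 with 0 members higher and 17 lower (2.65% and 16.4% of all probes). D2R-KO against stressed WT had 0.63 with 22 and 0 (18.4% and 3.72% of all), and D2LR-KO against stressed WT 0.45 with 16 and 0 (11.9% and 4.31%). In D2LR-KO 1 was lower against non-stressed WT (2.87% of all, median -0.16) and 4 against D2R-KO (2.02%). No normalization between arrays moves the median of all probes in stressed WT against non-stressed WT to -0.15. It gave that comparison -0.66 with 0 higher and 24 lower (1.13% and 22.4% of all probes). D2R-KO against stressed WT had 0.70 with 23 and 0 (21.0% and 2.59%), and D2LR-KO against stressed WT 0.40 with 14 and 0 (10.8% and 5.04%). D2LR-KO had -0.35 with 3 lower (7.47% of all) against non-stressed WT and -0.34 with 4 lower (4.59%) against D2R-KO. The lack of normalization turned Psmb2 to -0.056 and Psmd1 to -0.041 in stressed WT against non-stressed WT. With the background around each spot stressed WT against non-stressed WT turned to 0.15 with 8 higher and 10 lower (9.81% and 9.84% of all probes). Against non-stressed WT, D2R-KO had 10 and 3 (6.96% and 5.0%) and D2LR-KO 10 and 7 (6.88% and 4.74%). D2LR-KO had 3 and 7 against stressed WT (7.21% and 6.81%) and 4 and 6 against D2R-KO (2.99% and 2.45%). In D2R-KO against stressed WT 5 were lower (7.36% of all), and the median turned to -0.01. The same setting turned Psmb2 to -0.79, Psmd10 to 0.13 and Psmd5 to 1.03 in stressed WT against non-stressed WT and Psma6 to -0.23, Psmb2 to 0.29 and Psmd5 to -0.28 in D2LR-KO against stressed WT. The deposited values as they stand gave stressed WT against non-stressed WT -0.38 with 1 higher and 16 lower (22.2% and 24.5% of all probes). D2R-KO against non-stressed WT had 0.22 with 2 higher (7.97%). Against stressed WT, D2R-KO had 0.56 with 18 and 1 (29.0% and 22.9%) and D2LR-KO 0.49 with 19 and 1 (25.3% and 23.2%). In D2LR-KO against D2R-KO 2 were lower (5.27%). Restricting the deposited values to bright probes gave 17 members higher in D2R-KO and 18 in D2LR-KO against stressed WT (39.4% and 32.4% of all bright probes), with these 4 medians at the same values. The cause was not tested. Of 1572 recomputed differences of the members chosen for values on all arrays, 1099 stayed within the control-spot SD of the reported value. A further 465 moved beyond it, and 8 that had been past 1.5-fold turned in sign. Smaller differences that changed sign are not in the 8 but within the 1099 and the 465. Psmd4 in stressed WT against non-stressed WT, for example, changed sign under 4 of the 11 alternatives. The detection filters and the bright-probe filter alone cannot change the difference of a single member, so their values are among the 1099 by construction. The bright-probe filter on the deposited values likewise repeats the deposited values as they stand. All members were above the blank spots, but low signal limits the dim Psma8 and Psmb9 most, and the 1 array per group limits every value. No paired analysis was possible because each group has 1 array and no test was run.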
